A study of Mus musculus with 9 samples.

Results

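A total of 931 differentially methylated regions (DMRs) on the mouse autosomes had another DMR of the opposite direction within 10 kb, measured between the nearer edges. They were 7.25% of the 12845 autosomal DMRs and 7.19% of the 12949 DMRs listed on all chromosomes, and they formed 488 pairs in which a DMR higher in control lay beside a DMR higher in modified maternal separation (MMS). The members were chosen by the sign of the difference between the group means and by position, so both directions occur in every pair by selection, and their differences are given as a description without a test.

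The study asked whether stress in early life alters DNA methylation in the hypothalamus, which controls the hormonal stress response. Methylated DNA immunoprecipitation (meDIP) sequencing was carried out on hypothalamic DNA of male C57/Bl6 pups at postnatal day 6. MMS pups were taken from the dam daily from postnatal day 4 to 6, kept warm, and turned onto their backs whenever they righted themselves, while control pups were their littermates. DNA of 10 pups per group was pooled into 3 libraries per group, next to 2 pooled inputs and 1 IgG control whose labels also name the methylcytosine antibody. A library therefore holds several pups, and the hypothalamus holds neurons and glia together, so a change in methylation within a cell type and a change in cell make-up cannot be told apart.

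In mammals DNA methylation falls mostly on cytosines that precede a guanine (CpG sites). Most CpG sites of a mammalian genome are methylated, promoters that lie in CpG islands are usually not, and methylation of gene bodies and distal regulatory elements varies between cell types. In meDIP an antibody pulls down fragments that carry methylated cytosine, so read numbers depend both on how many CpG sites a region holds and on how far they are methylated. A DMR in these data is a stretch of enriched reads, and no single CpG site is resolved.

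The values are the authors' group means, on a log2 scale of normalised reads, of the 3 control and the 3 MMS meDIP libraries. No values per library were given, so no spread between pools can stand beside a value. The lowest value that a group mean took was -0.17 in control and -0.24 in MMS, which corresponds to 0.889 and 0.847 normalised reads. A group within 0.5 of that value is called at its lowest value here, and a difference against it depends on where that value lies. Where 2 values of a region are joined by "and" without further label, the control mean comes first and the MMS mean follows. The study's methods state a range of reads per sample, but the depth of each single library behind these means is not given in the sources used here.

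The sequences of a few pairs show how such neighbours looked in the reference genome (RefSeq, GRCm38/mm10, plus strand). Each line gives the 120 bases at the centre of a DMR, and capitals mark the CpG sites within them. The Cds1 and Ece1 pairs are shown because they were the closest pairs of all. The Aass, Cdh13 and Slc38a1 pairs are shown because their differences were the largest in both directions at once. The Mast4 pair is shown because it had a large opposed difference with every group mean above its lowest value.
Cds1, higher in MMS, chr5:101818657-101818776: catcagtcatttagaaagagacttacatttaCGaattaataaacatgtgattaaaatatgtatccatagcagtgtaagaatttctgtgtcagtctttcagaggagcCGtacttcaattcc
Cds1, higher in control, chr5:101819422-101819541: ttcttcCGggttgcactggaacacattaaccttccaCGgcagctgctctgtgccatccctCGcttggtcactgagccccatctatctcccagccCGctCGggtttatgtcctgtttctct
Ece1, higher in MMS, chr4:137916403-137916522: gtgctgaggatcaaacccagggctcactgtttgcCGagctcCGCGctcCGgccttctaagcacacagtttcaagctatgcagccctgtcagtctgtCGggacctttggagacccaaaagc
Ece1, higher in control, chr4:137915481-137915600: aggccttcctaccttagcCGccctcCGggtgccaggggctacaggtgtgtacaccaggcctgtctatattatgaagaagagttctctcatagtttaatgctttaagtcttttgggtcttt
Aass, higher in MMS, chr6:23127474-23127593: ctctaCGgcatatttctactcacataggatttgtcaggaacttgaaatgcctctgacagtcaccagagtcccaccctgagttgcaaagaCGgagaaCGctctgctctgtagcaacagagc
Aass, higher in control, chr6:23121855-23121974: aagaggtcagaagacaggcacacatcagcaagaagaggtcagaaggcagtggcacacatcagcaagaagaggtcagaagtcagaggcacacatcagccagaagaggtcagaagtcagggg
Cdh13, higher in MMS, chr8:118616269-118616388: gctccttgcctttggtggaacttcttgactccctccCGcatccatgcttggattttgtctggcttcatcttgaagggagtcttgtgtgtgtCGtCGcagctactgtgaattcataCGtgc
Cdh13, higher in control, chr8:118624405-118624524: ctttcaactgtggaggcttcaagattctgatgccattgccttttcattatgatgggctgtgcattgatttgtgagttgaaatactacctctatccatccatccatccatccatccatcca
Slc38a1, higher in MMS, chr15:96633286-96633405: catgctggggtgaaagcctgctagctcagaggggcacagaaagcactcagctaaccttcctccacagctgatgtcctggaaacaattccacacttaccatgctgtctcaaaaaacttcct
Slc38a1, higher in control, chr15:96627243-96627362: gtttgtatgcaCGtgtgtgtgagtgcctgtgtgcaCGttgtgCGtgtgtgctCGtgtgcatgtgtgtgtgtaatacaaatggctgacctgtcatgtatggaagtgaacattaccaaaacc
Mast4, higher in MMS, chr13:103112171-103112290: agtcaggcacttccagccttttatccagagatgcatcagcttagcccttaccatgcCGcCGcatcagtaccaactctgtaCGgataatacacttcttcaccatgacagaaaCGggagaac
Mast4, higher in control, chr13:103121364-103121483: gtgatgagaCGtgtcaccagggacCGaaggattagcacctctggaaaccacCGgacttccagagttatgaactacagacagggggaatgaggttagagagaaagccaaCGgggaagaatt

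In CpG content 5 of these 6 pairs of windows differ, and the richer window is the one higher in MMS in 3 of them and the one higher in control in 2. The central window of the Cds1 DMR higher in control held 5 CpG sites and that of its neighbour 2. For Ece1 the order was turned round, with 5 in the DMR higher in MMS and 2 in the DMR higher in control. At Slc38a1 the window higher in MMS held 0 and the other 4, and at Mast4 both held 4. The windows need not show the order of the whole DMRs. Over its whole length the Cds1 DMR higher in MMS had 2.37 CpG per 100 bp and its neighbour 2.13. At Mast4 the whole DMR higher in MMS had 1.18 and the other 2.55. At Aass and Cdh13 the DMRs higher in control held 0 CpG sites over their whole 333 bp and 216 bp. Among all members 22 (2.36%) held no CpG site, against 2.40% of all autosomal DMRs.

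Of the 931 members, 474 (50.9%) were higher in MMS, where 62.4% of all autosomal DMRs were. The other 457 members were higher in control, the direction of 37.6% of all autosomal DMRs. This near balance is set by the rule, since each pair takes a DMR of each direction. A log2 difference of at least 2 in size was found in 418 members higher in MMS (44.9%, background 56.1%) and in 146 members higher in control (15.7%, background 13.6%). These shares are of all members and carry the same balance. Within a direction they were 88.2% of the members higher in MMS, against 90% of all autosomal DMRs of that direction, and 31.9% of the members higher in control, against 36.2%.

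Most members stood in simple pairs. Linking members through opposite neighbours gave 443 groups, of which 400 held 2 DMRs, 41 held 3 and 2 held 4. In 21 of the 488 pairs a further DMR lay between the members. Another 952 autosomal DMRs had neighbours within 10 kb of their own direction alone, and 10962 had no other DMR within 10 kb.

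Opposite neighbours were about as common close together as far apart. Among adjacent autosomal DMRs within 10 kb, 467 of 988 pairs (47.3%, 95% Wilson interval 44.2 to 50.4) were of opposite direction. Beyond 10 kb the share was 5385 of 11838 (45.5%, 44.6 to 46.4), and the intervals overlap. Under 1 kb 30 of 58 adjacent pairs were opposite (51.7%, 39.2 to 64.1), and beyond 500 kb 456 of 1059 (43.1%, 40.1 to 46.1). These intervals cover counting error only and treat pairs as separate, although a DMR can stand in 2 of them. Without the DMRs that had a group at its lowest value, the shares were 49.2% (228 of 463) within 10 kb and 48.0% (2433 of 5067) beyond. Among DMRs with a log2 difference of at least 2, of which 7210 were higher in MMS and 1749 in control, the share within 10 kb was 29.1% (25.1 to 33.5). Counting every pair within 10 kb and not adjacent ones alone, 488 of 1028 (47.5%, 44.4 to 50.5) were opposite, 371 were both higher in MMS and 169 were both higher in control.

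**Figure D1:**
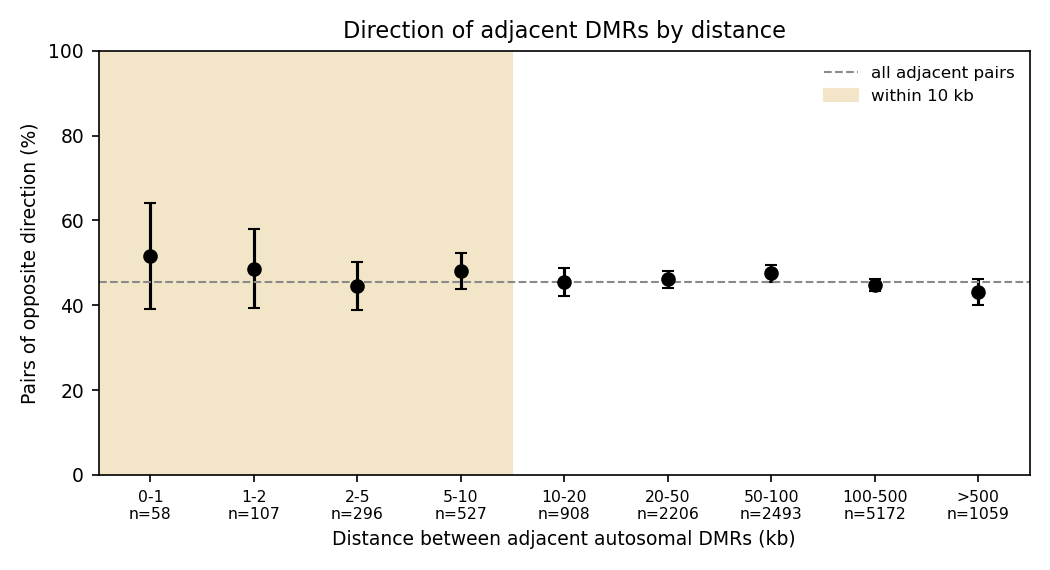
Share of adjacent autosomal DMR pairs that were of opposite direction (y axis, percent) by the distance between them (x axis, kb), with the number of pairs under each class. Points are shares, bars are 95% Wilson intervals, the dashed line is the share over all adjacent pairs (45.6%) and the shaded part lies within 10 kb. Every class lies between 43.1% and 51.7%.

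The median distance between the members of an opposite pair was 5540 bp (quartiles 3112 and 7645, range 195 to 9991). It was at most 1 kb in 30 pairs (6.15%), at most 2 kb in 82 (16.8%) and at most 5 kb in 216 (44.3%). The 540 pairs of the same direction had a median distance of 5304 bp, and the closest lay 346 bp apart. The spread of distances was thus similar for both kinds of pair. Just inside the limit lay pairs 9943, 9983 and 9991 bp apart, and just outside it pairs 10015, 10031 and 10032 bp apart. The DMRs higher in MMS in these 6 pairs had differences of 4.30, 3.43 and 2.78 inside and 2.03, 1.21 and 1.49 outside, on the log2 scale. Their partners higher in control had differences of -1.44, -2.06 and -3.03 inside and -1.49, -2.77 and -2.93 outside.

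**Figure D2:**
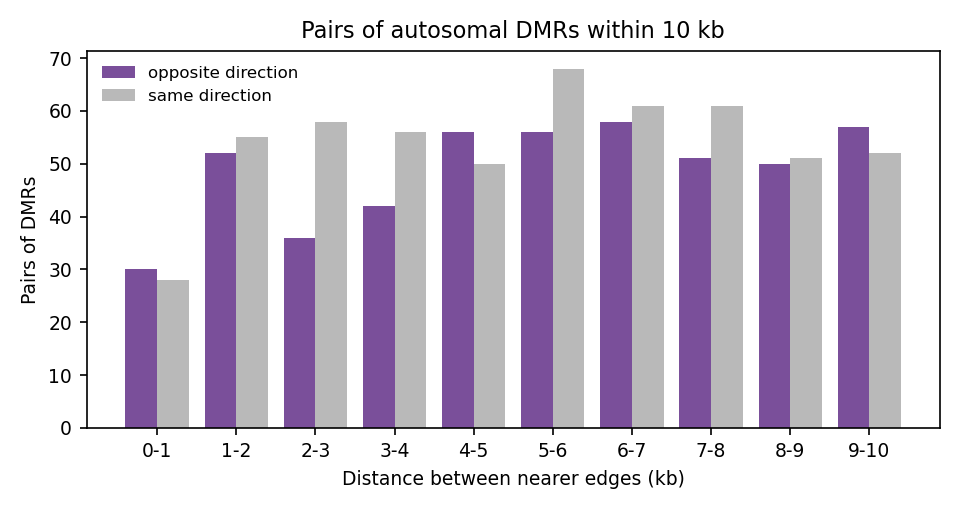
Number of pairs of autosomal DMRs (y axis) by the distance between their nearer edges (x axis, kb, in steps of 1 kb), for pairs of opposite direction (purple) and pairs of the same direction (grey). Opposite pairs numbered 30 under 1 kb and 57 between 9 and 10 kb, against 28 and 52 pairs of the same direction.

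The directions were not mirror images in level. Members higher in MMS had a median log2 mean of 0.40 in control (quartiles -0.17 and 1.73) and 4.17 in MMS, so many of them started from almost no reads. Members higher in control had medians of 5.09 in control and 3.34 in MMS, so they kept reads in both groups. The median difference, MMS minus control, was 3.46 in the former (from 0.89 to 5.79) and -1.72 in the latter (from -5.32 to -0.71). The same medians over all autosomal DMRs were 3.43 and -1.73, so the members differed in size about as DMRs did in general. The lower group was at its lowest value in 237 of the 474 members higher in MMS (50%, against 52.6% of all autosomal DMRs higher in MMS) and in 14 of the 457 higher in control (3.06%, against 4.61% of all autosomal DMRs higher in control). Together these were 251 members (27.0%), against 34.5% of all autosomal DMRs. The even split of directions that the rule sets enters this overall share, since members higher in control are more numerous among the members than among all autosomal DMRs.

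**Figure D3:**
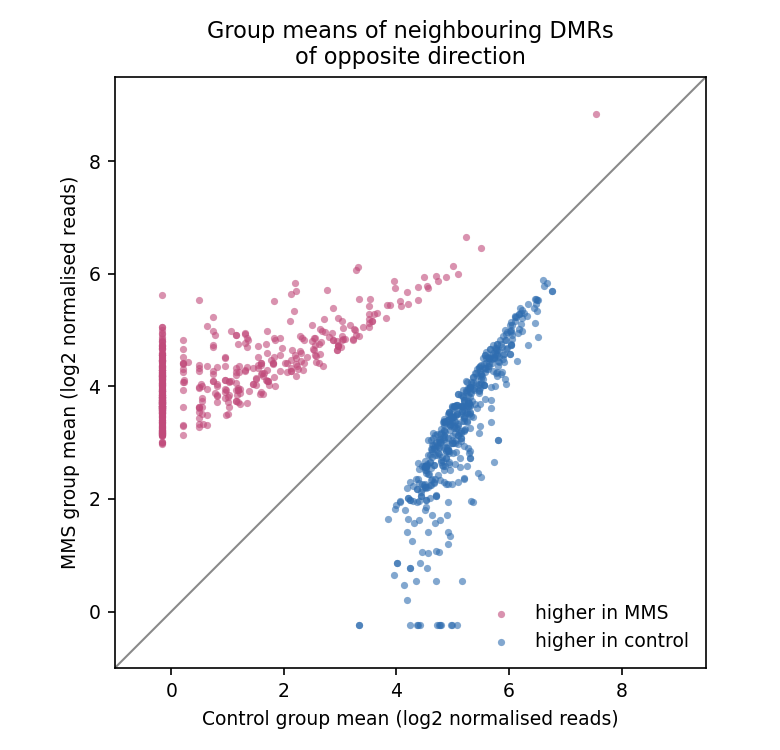
Control group mean (x axis) against MMS group mean (y axis) of the 931 members, both in log2 normalised reads, with members higher in MMS in red and those higher in control in blue. Each point is a DMR, drawn once for each pair it stands in, and the line marks equal means. The column of red points at -0.17 holds members whose control mean was exactly the lowest in the table, and the blue points at -0.24 those whose MMS mean was.

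Counted by pair, the same members show the same asymmetry, which follows from the medians above and is shared by DMRs in general. No count for DMRs outside such pairs stands beside the following ones. The member higher in MMS had the larger difference in 419 of 488 pairs (85.9%), while the member higher in control reached the higher level in 421 (86.3%). The smaller of the members' differences in size, called the opposed difference here, had a median of 1.63 (quartiles 1.31 and 2.05) and ran from 0.71 to 4.62. It was at least 1 in 462 pairs (94.7%), at least 2 in 134 (27.5%) and at least 3 in 24 (4.92%). In 249 pairs (51.0%) at least 1 of the 4 group means was at its lowest value, and in 239 all 4 lay above it. In 9 pairs the lower group of both members was at its lowest value, so that almost all reads lay in the first region in control and in the other in MMS.

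**Figure D4:**
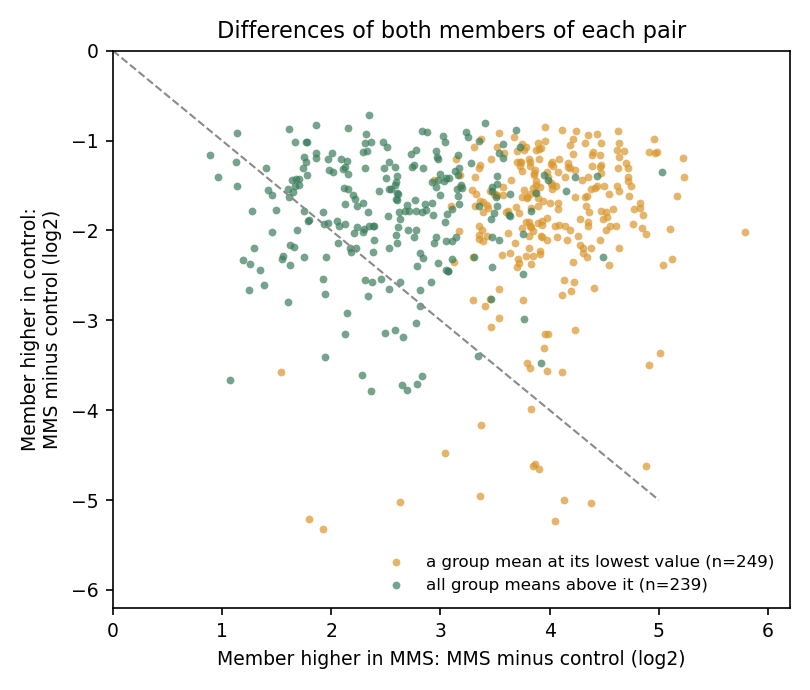
Difference between the group means, MMS minus control on the log2 scale, of the member higher in MMS (x axis) and the member higher in control (y axis) in the 488 pairs. Orange points are the 249 pairs with a group mean at its lowest value and green points the 239 pairs without; points above the dashed line have the larger difference in the member higher in MMS, as 419 did.

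The closest pair lay 195 bp apart in an intron of Cds1, which makes CDP-diacylglycerol for phosphoinositide synthesis. Its DMR higher in MMS, chr5:101818359-101819075, had 3.52 in control and 5.12 in MMS. Its DMR higher in control, chr5:101819271-101819693, had 5.10 and 2.30. Both regions were covered in both groups, and the level in control on one side was close to that in MMS on the other. The DMRs have 17 and 9 CpG sites, and neither aligns elsewhere in the genome over 100 bp at 95% identity.

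In an intron of Ece1, which encodes endothelin-converting enzyme, the members lay 435 bp apart, 1800 and 2775 bp from the transcription start. The DMR higher in control (chr4:137915271-137915810) went from 4.53 in control to 2.58 in MMS. The DMR higher in MMS (chr4:137916246-137916679) went from 2.20 to 4.55. The differences, MMS minus control, were -1.95 and 2.35. Ece1 held a further member, 3 in all, and they were the only DMRs in that gene.

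The next closest pair lay 473 bp apart in an intron of Sox2ot, a long noncoding RNA gene that spans the neural stem cell factor gene Sox2. Here the levels were unequal: the DMR higher in control (chr3:34627150-34628407) had 6.47 in control and 5.13 in MMS, whereas its neighbour (chr3:34628881-34629151) had 0.50 and 3.63. The transcription start of Sox2 lay 21254 bp from the nearer member. Between genes on chromosome 11, 105060 bp from the start of the myelin gene Pmp22, a pair 563 bp apart had 0.96 in control and 4.12 in MMS in the member higher in MMS. Its other member had 5.28 and 3.66. These were the 4 pairs with the shortest distance, and none of the 4 had a group at its lowest value.

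The largest opposed differences came from pairs in which reads were almost absent from a different region in each group. At Aass, which encodes an enzyme of lysine breakdown, the promoter DMR (chr6:23127087-23127981) had -0.17 in control and 4.71 in MMS. In an intron of the same gene, 5005 bp away, chr6:23121749-23122081 had 4.38 in control and -0.24 in MMS. The opposed difference was 4.62, the largest of all pairs. At Cdh13, a cadherin held in the membrane by a lipid anchor, chr8:118615633-118617025 had -0.17 and 4.21, and chr8:118624357-118624572 had 4.79 and -0.24. The first of these lies at the promoter of an antisense transcript, Gm45720, and 331900 bp from the nearest protein-coding start, that of Cdh13.

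Slc38a1, a sodium-coupled transporter of glutamine in neurons, held a similar pair 5850 bp apart in introns. Its DMR higher in MMS (chr15:96633244-96633448) had -0.17 and 3.96, and its DMR higher in control (chr15:96627213-96627393) had 4.76 and -0.24. On chromosome 5, between genes and 600029 bp from the start of Auts2, a pair 4295 bp apart had -0.17 and 3.88 in the member higher in MMS and 4.99 and -0.24 in the other. The remaining pairs of this kind lay in Vav3, Tnfrsf1b, Sez6l and Grb2 and between genes on chromosome 13. Across the 9 pairs the members were 161 to 1393 bp wide and held 0 to 23 CpG sites, and the higher group of each had a log2 mean of 3.19 to 4.99.

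With every group mean above its lowest value, pairs at Mast4, at an intergenic site on chromosome 6 and at Man1c1 were among those with the largest opposed differences. In Mast4, a microtubule-associated kinase gene, chr13:103112062-103112399 had 0.75 and 4.09, and chr13:103121346-103121502 had 4.45 and 1.05.

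The chromosome 6 pair lay only 1791 bp apart, with chr6:51148263-51149003 at 0.50 in control and 4.27 in MMS and chr6:51145331-51146471 at 5.45 and 2.47. The nearest start of a protein-coding gene, that of Nfe2l3, was 283667 bp away. In Man1c1, which encodes a mannosidase of the Golgi, chr4:134645655-134646488 had 1.59 and 4.42 and chr4:134652658-134652912 had 4.70 and 1.08. The opposed differences of these 3 pairs were 3.34, 2.98 and 2.83.

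**Figure D5:**
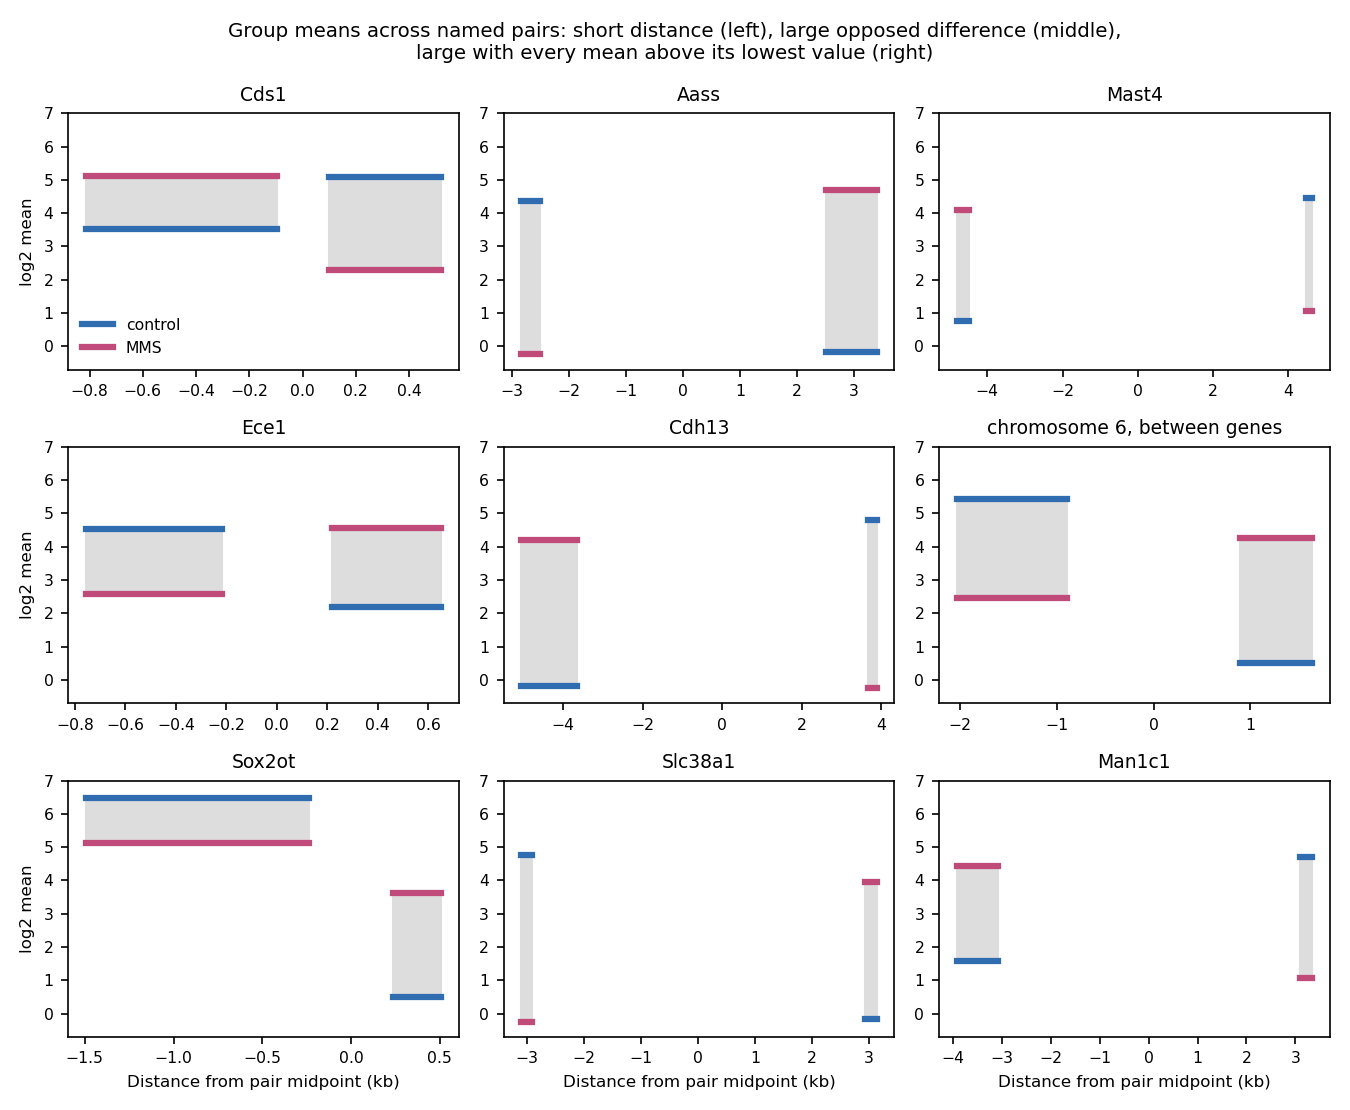
Group means (y axis, log2 normalised reads) of 9 pairs along the distance from the midpoint between their nearer edges (x axis, kb). Blue lines are control, red lines are MMS, and the line length is the width of the DMR; the columns hold 3 of the shortest distances, 3 of the largest opposed differences, and 3 of the largest with every mean above its lowest value. In every panel the order of the lines turns round from the first DMR to the other, as from 3.52 and 5.12 to 5.10 and 2.30 at Cds1.

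Pairs at the highest levels showed smaller differences. Near Il21r on chromosome 7, 9273 bp apart, the member higher in MMS had 4.74 in control and 5.88 in MMS and the other 6.22 and 5.30. At Olfr524, an olfactory receptor gene, the members had 3.28 and 6.06, and 5.85 and 4.75. In Hspa12a, of the heat shock protein 70 family, they had 3.97 and 5.75, and 5.90 and 4.89. Near Dio3, which inactivates thyroid hormone and is imprinted, chr12:110256374-110257719 had 2.76 and 5.72 and chr12:110250235-110251163 had 5.48 and 4.36, with the nearer of them 21349 bp from the gene start. The Hspa12a member higher in control has 295 alignments in the genome, itself included, the longest elsewhere spanning 167 bp, so reads from other copies can fall on part of it.

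The widest member, named after its values were seen, was chr13:119595514-119603075 in Tmem267. It spanned 7562 bp, of which 73.9% was repeat sequence, and had the highest means of all members, 7.55 in control and 8.84 in MMS. Its partner, 5912 bp away at chr13:119608988-119609369, had 4.37 and 2.17 and was dense in CpG, at 5.50 per 100 bp.

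Groups of more than 2 linked members were few. Some changed direction a single time and others changed and then changed back, so the groups described do not stand for the rest. Both groups of 4 members lay between genes. On chromosome 2 from 162818437 to 162827731, 3 DMRs higher in MMS were followed by 1 higher in control, with control means of 1.39, 1.21, -0.17 and 5.56 and MMS means of 3.92, 4.36, 3.85 and 4.02. On chromosome 4 from 57314713 to 57327631, 12876 bp from Ptpn3 at its nearer end, a tyrosine phosphatase gene, the direction changed to higher in control and back. The control means there were 2.55, 5.30, 0.20 and 3.26 and the MMS means 4.86, 3.99, 4.39 and 5.00. The MMS means were thus more even than the control means along both runs. The chromosome 4 DMR with 0.20 in control has 9136 alignments, itself included, the longest elsewhere spanning 149 bp. Among the 41 groups of 3, which are tied in size, the first by position lay in Fam163a on chromosome 1. There a DMR higher in MMS (2.96 and 4.71) was followed by 2 higher in control, with 4.46 and 2.17 in the first and 5.88 and 4.70 in the next.

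Both members lay in the same protein-coding gene in 232 pairs (47.5%, 43.1 to 52.0), and pairs of the same direction did so in 250 of 540 (46.3%, 42.1 to 50.5). In 206 pairs (42.2%) neither member lay in such a gene, in 40 only 1 did, and in 10 the members lay in different genes. In all, 214 genes held a complete pair. Within a gene the directions had no fixed order. The member higher in MMS came first from the start of the gene in 112 of the 227 pairs whose shared genes lie on the same strand (49.3%, 42.9 to 55.8). A transcription start of a protein-coding gene lay between the members in 37 pairs (7.58%). This share has no counterpart here for pairs of the same direction, so it cannot be read as a trait of opposite pairs.

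The genes with the most members each held both directions in equal number. The rule sets this for genes that hold separate pairs, since each pair brings a DMR of each direction. Gm20388, a readthrough annotation of 4435 kb on chromosome 8 that runs over many other genes, held 8 members, 4 of each direction, among its 56 DMRs. Ctnna3, an alpha-catenin of cell adhesion, and Grid1, the glutamate receptor subunit delta 1 that organises synapses, each held 4, of 12 and 8 DMRs over 1574 and 763 kb. The kinase gene Lrrk1 and the teneurin gene Tenm3 also held 4 each, of 5 and 9 DMRs over 161 and 616 kb. In the first pair of Grid1, 1997 bp apart, chr14:35140558-35140710 had 2.29 in control and 4.63 in MMS and chr14:35142708-35143227 had 4.69 and 2.90. In the other, the members had -0.17 and 3.00, and 4.92 and 2.91. In Tenm3, which guides the matching of connected neurons, the closer pair had 2.62 and 4.75, and 4.77 and 3.06, and the other had -0.17 and 3.68, and 4.50 and 2.22. In Ctnna3 the members of the closest pair, 2020 bp apart, had -0.17 and 3.64, and 5.49 and 3.30. Lrrk1 held a pair 2298 bp apart with -0.17 and 3.81, and 5.26 and 3.91. At Gm20388 the closest members, 2629 bp apart, had 1.82 and 4.52, and 4.34 and 2.35.

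By the centre of the DMR, 452 members (48.5%) lay in introns, 332 (35.7%) between genes, 48 at transcription ends, 45 (4.83%) at the promoter of some transcript, 40 in exons, 14 in 3' UTRs and 0 in 5' UTRs. Among all autosomal DMRs 45.8% lay in introns and 41.1% between genes. The members of a pair shared the kind of feature in 337 pairs (69.1%), of which 186 had both in introns and 145 had both between genes. For pairs of the same direction this share is not given. Promoters of protein-coding genes, taken as the 1000 bp before and the 100 bp after the start of any protein-coding transcript, held 8 members (0.859%, against 1.28% of all autosomal DMRs). The 6 higher in MMS were at Aass, Matn1, Emc10, Dnmt3l, Phf23 and Yju2, and 1 of the 2 higher in control was at Sec24b.

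In 4 of these promoter pairs both members lay in the same gene, and 3 of them are described. At Matn1, a matrix protein gene of cartilage, the promoter DMR (chr4:130944052-130944644) had 0.96 and 4.37 and its intronic partner 6.19 and 5.39. At Sec24b, which encodes a coat protein of vesicles that leave the endoplasmic reticulum, the promoter DMR (chr3:130040770-130041531) had 4.82 and 2.68 and its partner 0.96 and 3.90. That partner lies in Sec24b nearer the start of the gene, so this promoter is that of a transcript that starts inside the gene. With the Aass pair above, these promoters thus differed in both directions, each with a difference of the other sign 5005 to 9831 bp away. Expression is not measured in these files, so nothing can be said of transcription at these promoters.

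Gene groups that fit a developing hypothalamus were taken as lists, and their members are given as counts. Of the 6358 autosomal DMRs in protein-coding genes, 504 (7.93%) were members. Among ion channel genes 10 of 139 DMRs were members (7.19%), 5 of each direction. They lay in the calcium channel genes Cacna1c and Cacna1i, in the auxiliary subunit gene Cacng2, in the calcium release channel gene Itpr1 and in the potassium channel gene Kcnd3. Each of these 5 genes held 2 members. In Kcnd3, the first of them by position and a subunit of a fast A-type potassium channel, the members had 3.51 in control and 5.28 in MMS, and 5.84 and 4.82.

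Of 96 DMRs in genes of transmitter receptors and postsynaptic scaffolds, 10 were members (10.4%), in Grid1, Grik4, Chrna3, Chrnb4 and Dlgap2. Adhesion and synaptic organiser genes held 9 of 100, all in Cdh13, Tenm3 and Tenm4. Axon guidance genes held 3 of 56 (5.36%), in Efna1 and Ephb4. In Ephb4, a receptor for ephrin-B ligands, the members had 3.03 and 4.89, and 5.65 and 4.51, and the former has 25 alignments in the genome, itself included, of at most 131 bp elsewhere. These shares lie on both sides of the 7.93% over protein-coding genes, and each rests on 3 to 10 members.

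Genes for DNA methylation and chromatin held 5 members of 72 DMRs (6.94%), in Kdm2b, Smyd3 and Dnmt3l, the last a partner of the enzymes that set new methylation. Kdm2b, a histone demethylase gene, and Smyd3, a lysine methyltransferase gene, held 2 members each. In Smyd3, the first of them by position, the members had 2.50 in control and 5.10 in MMS, and 5.06 and 3.67. Developmental transcription factor genes held 7 of 82 (8.54%), in Foxk1, Foxp1, Sox5 and Sox8. Of these, Foxk1, Foxp1 and Sox5 held 2 members each, and in Foxk1, the first of them by position, the members had -0.17 and 3.18, and 4.79 and 2.69. The list of 44 imprinted genes, which is not complete, held 2 of 30 (6.67%), both in Trappc9, with 0.81 and 4.01 in the member higher in MMS and 4.84 and 3.31 in the other. Rasgrf1 and Slc38a4, imprinted genes outside that list that were named after their values were seen, held 2 members each, 1 of each direction.

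Among neuropeptide genes and their receptors there was 1 member of 10 DMRs, in Trh, the gene of thyrotropin-releasing hormone, made in the hypothalamus. This DMR, chr6:92242906-92244271, had 5.31 in control and 3.27 in MMS and lay 379 bp from the Trh start with 24 CpG sites. Its partner lay on the far side of that start, outside the gene, at chr6:92251456-92251838, with -0.17 and 4.71. Stress, immediate early and clock genes held 19 DMRs and glial marker genes 11, and none of these was a member.

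In sequence the members lay close to other DMRs, and the directions close to each other. Since the groups differ in their share of each direction, the medians of width, CpG and GC are given within a direction, for members, for DMRs with neighbours of their own direction alone and for DMRs with none near. The median width was 531, 554 and 512 bp in DMRs higher in MMS and 623, 584 and 594 bp in DMRs higher in control. The median CpG density was 1.44, 1.29 and 1.25 per 100 bp in those higher in MMS and 1.51, 1.55 and 1.42 in those higher in control. Beside DMRs with neighbours of their own direction, members thus had the larger median width among those higher in control but not among those higher in MMS, and for CpG density the reverse held. The median GC content was 48.3%, 47.8% and 47.1% in those higher in MMS and 48.6%, 47.9% and 47.6% in those higher in control. Over both directions together the members had a median width of 587 bp and a median CpG density of 1.47 per 100 bp. Also over both directions, the distance to the nearest start of a protein-coding gene had a median of 24052 bp, against 24684 and 34793 bp. The median distance was thus smaller for both kinds of neighbour than for lone DMRs, while repeat content was alike in all 3, at a median of 20.6%, 19.6% and 20.7%. Only 13 members (1.40%) were over 90% repeat, against 3.36% of all autosomal DMRs, and 7 (0.752%) met the island criteria against 0.420%.

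Compared with its own partner, the member higher in MMS was the wider in 233 of 488 pairs (47.7%, 43.3 to 52.2). It was denser in CpG in 236 (48.4%, 44.0 to 52.8), richer in GC in 245 (50.2%, 45.8 to 54.6) and richer in repeats in 225 (46.1%, 41.7 to 50.5). Each of these intervals includes equality, so none of these measures separated the directions beyond counting error. The stretch between the members held a median of 1.10 CpG per 100 bp, and it was poorer in CpG than both members in 237 of the 485 pairs at least 500 bp apart.

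The members of a pair were not copies of each other. Only 15 of 488 pairs had any alignment between their members, 8 had one of at least 100 bp, and 0 had one of at least 100 bp at 95% identity. The longest spanned 155 bp at 87.1% identity, on chromosome 4. Of 83 regions compared with the whole genome, 76 aligned to themselves alone in the reference chromosomes, and 0 had a copy elsewhere over 90% of their length.

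Members were found on every autosome. Their share of the DMRs ran from 4.53% on chromosome 16 (19 of 419) to 11.7% on chromosome 17 (67 of 571), and chromosome 4 followed with 9.32%. Per length, chromosome 17 again held the most, with 0.731 members per Mb, and chromosome 16 the fewest, with 0.200.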

How the data were processed

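MeDIP sequencing was performed on 3 control and 3 MMS pools of hypothalamic DNA, with inputs and an IgG control that entered the authors' processing. Per the labels and the methods, alignment to mm10 by the authors was followed by broad peak calling against the inputs (MACS2, with the human genome size setting, which enters the expected background) and by DiffBind with DESeq2. The authors deposited a table of DMRs with log2 values, each a mean of DiffBind-normalised reads in a group or in both groups together, and the groups were read here as control (untreated) and MMS (treated). Its fold change, p-value and false discovery rate columns hold the authors' own comparison and were not used.

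Directions were taken from the group means. The members and the gene lists were chosen with earlier results of these data known. Neighbours were searched on each autosome by the distance between nearer edges (at most 10000 bp), a search tested on simulated regions. Positions were annotated by the centre of each DMR with GENCODE vM21, while CpG sites, GC content and repeats (soft-masked bases) were counted in the RefSeq GRCm38 genome. Distances to starts are to protein-coding transcripts. An island was a region of at least 200 bp with a GC content above 50% and an observed to expected CpG ratio above 0.6, over the whole DMR. Alignments used BLAST 2.17.0 (at least 100 bp and 95% identity, assembled chromosomes alone). Shares have 95% Wilson intervals, for counting error only. No test between groups was run, because the values used hold no libraries.

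Named were the 4 pairs with the shortest distance, the 4 with the largest opposed difference, the 4 largest and the 4 highest in level with every mean over 0.5 above its lowest value, the 3 largest groups, the 5 genes with the most members, same-gene promoter pairs, and per gene list the gene with the most members. Ties went to chromosome and start order. They decided the last of the 3 groups, among 41 of equal size, and the genes named for ion channels, chromatin and transcription factors. Pairs on chromosome 18 were counted and not named. Some pairs that the rule names are counted and not reported here. Alternatives varied the distance, the difference, the width, the limit for the lowest value and the genes used. The work used Python 3.11.15, numpy 2.4.6, pandas 2.3.3, scipy 1.17.1 and matplotlib 3.10.9.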

Additional observations from a re-analysis of the deposited data

How the results depend on the processing

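Of 44 values under 9 alternatives for 7 results, 28 stayed close to the main value and 16 moved. The number of members (931) and pairs (488) moved by construction. It was 425 and 216 within 5 kb, 1763 and 956 within 20 kb, 517 and 269 with a width of at least 300 bp, 465 and 239 with both group means above the lowest value, and 257 and 134 with a log2 difference of at least 2. With that minimum difference, the share of adjacent pairs of opposite direction was 29.1% in place of 47.3%, and most DMRs left are higher in MMS (7210 against 1749). The median CpG density was then 1.38 per 100 bp (main 1.47), and the share of members with a group at its lowest value was 32.3% (main 27.0%). That share was 31.9% with a limit of 1 above the lowest value. The share of pairs within the same gene (main 47.5%) was 53.7% with genes of every biotype and 42.5% within 20 kb. The cause of these shifts was not tested. No paired analysis was possible because the values used are group means without libraries, and for the same reason leaving out each replicate was not run. Alternatives cannot show how far the pools differ, and the 3 pools per group limit every difference.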
